A study of Mus musculus with 18 samples.

Results

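Retinoic acid signalling was followed through 9 of its genes in RNA-seq data from mouse blood development and from fibroblasts reprogrammed towards blood. The genes were chosen by name as known parts of the pathway and not by their values. They were *Cyp26a1*, which encodes an enzyme that breaks down retinoic acid, *Aldh1a2* and *Dhrs3*, which encode enzymes that make it and limit it, *Stra6*, which encodes a receptor for retinol uptake, *Crabp1* and *Crabp2*, which encode cellular binding proteins, and *Rara*, *Rarb* and *Rarg*, which encode the retinoic acid receptors. All 9 were found among 20310 genes in the table of developmental stages and among 20495 genes in the table of fibroblasts. The stages were ESCs of strain 129 with a GFP reporter at *Brachyury* (Bry), grown on feeder fibroblasts, and 4 populations sorted after their differentiation in culture. These were mesoderm (MES, Bry+ Flk1-), hemangioblasts (HB, Bry+ Flk1+), hematopoietic progenitors (HP, CD41+) and macrophages (MAC, CD11b+). The fibroblasts were mouse embryonic fibroblasts (MEFs) of strain 129, isolated at embryonic day 14.5, which were left untreated (uFIB) or given the genes *Scl* (*Tal1*) and *Lmo2* (SL), *Scl*, *Fli1*, *Gata2* and *Lmo2* (SFGL), or *Fli1*, *Gata2* and *Lmo2* (FGL), and were harvested on day 12 or day 21. The MEFs were wild-type or carried rtTA and a doxycycline-inducible *TAL1* cassette (iTal1-2A-GFP), and the labels do not say which of these a library came from.

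Retinol enters cells, is oxidized to retinaldehyde by retinol dehydrogenases and then to retinoic acid by enzymes of the ALDH1A family. DHRS3 works in the reverse direction and returns retinaldehyde to retinol, while CYP26 enzymes oxidize retinoic acid and remove it. CRABP1 and CRABP2 bind retinoic acid in the cytoplasm, and CRABP2 passes it to receptors of the RAR family, which bind DNA together with RXR partners. *Cyp26a1*, *Rarb* and *Dhrs3* are known to respond to retinoic acid themselves, and *Cyp26a1* is known to be expressed in the gastrulating embryo.

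RAR and RXR bind direct repeats of a short sequence, and the promoters of the 9 genes were searched for such a repeat. The 2 promoters that hold it are shown. The search used the letters AGGTCA, the variant AGTTCA, the variant GGGTCA or the variant GGTTCA, repeated in the same direction with 5 bases between the copies (DR5), on both strands, in the 250 bases before and the 50 bases after each start in RefSeq (GRCm38.p6). The starts of a single chromosome were left out of the search. A DR5 was found in 32 of the 32851 promoters searched (0.0974%), and the promoters of *Cyp26a1* and *Rarb* were among them. In *Cyp26a1* (chr19:37697558-37697857, plus strand) it lay 32 to 16 bases before the start, on the strand opposite to the gene. In *Rarb* (chr14:16575427-16575726, minus strand) it lay 53 to 37 bases before the start, on the strand of the gene. The promoters are printed in the direction of the gene, with the repeat in capitals.

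Cyp26a1 promoter: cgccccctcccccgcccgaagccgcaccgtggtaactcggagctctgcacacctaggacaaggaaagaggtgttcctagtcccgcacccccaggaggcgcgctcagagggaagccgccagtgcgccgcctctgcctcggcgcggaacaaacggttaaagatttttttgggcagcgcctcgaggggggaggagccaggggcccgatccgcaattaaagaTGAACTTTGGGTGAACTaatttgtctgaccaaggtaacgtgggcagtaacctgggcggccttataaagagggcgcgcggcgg

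Rarb promoter: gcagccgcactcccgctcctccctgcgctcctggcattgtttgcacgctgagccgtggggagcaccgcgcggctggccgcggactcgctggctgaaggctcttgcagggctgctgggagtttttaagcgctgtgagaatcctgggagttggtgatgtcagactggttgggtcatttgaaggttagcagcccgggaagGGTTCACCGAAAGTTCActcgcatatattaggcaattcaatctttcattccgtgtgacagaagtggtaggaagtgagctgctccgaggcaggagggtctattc

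Read on its own strand, the repeat shows both copies in capitals and the spacer in lower case, and the genes differ at 2 of its 17 bases.

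Cyp26a1 repeat: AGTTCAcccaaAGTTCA

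Rarb repeat: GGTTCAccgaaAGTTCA

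The 1 promoter of *Aldh1a2*, the 3 of *Dhrs3*, the 4 of *Stra6*, the 1 of *Crabp1*, the 4 of *Rara* and the 2 of *Rarg* in the table held no such repeat, and *Crabp2* had no entry. With 2 bases between the copies instead of 5, the repeat stood in 0.268% of the promoters searched and in none of those of the 9 genes. A match describes the letters and is no measurement of binding. The expression table places *Rarb* at chromosome 14, 16430840 to 16575210 of GRCm38, so the start used by RefSeq for this promoter lies outside the locus that was quantified.

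Expression was given as FPKM, which scales fragments by transcript length and library size, so that levels can be compared between genes. For the stages the table holds 1 value in which the 2 replicates sequenced per stage are already combined, and each fibroblast condition is 1 library. No value therefore has a replicate error, no difference was tested here, and differences are given as a difference of log2(FPKM + 1), a scale that understates the change of low genes. A gene was counted as past the 2-fold limit when this difference was at least 1 in size, among genes with at least 1 FPKM in at least 1 sample of the table. This filter kept 11988 genes and 6 of the 9 retinoid genes in the stages (not *Rarb*, *Stra6* or *Aldh1a2*), and 12807 genes and 7 of the 9 in the fibroblasts (not *Cyp26a1* or *Stra6*). Shares given for all genes are of those that met the filter. A retinoid gene that missed it could not be counted on this scale. From ESC to HP genes with a value had an upper quartile of 10.2 to 11.4 FPKM, and in MAC it was 18.0 FPKM, so that values in MAC are also given after scaling, which gives all stages an equal upper quartile. The marker genes named next were high in the stages they stand for. *Pou5f1* had 383 FPKM in ESC, *T* 142 FPKM in MES and *Kdr* (Flk1) 77.6 FPKM in HB. *Itga2b* (CD41) had 62.5 FPKM in HP and *Csf1r* 234 FPKM in MAC. Of the 4 hemangioblast markers, 2 were past the limit lower in HP than in HB and 1 was higher. Of the 5 blood progenitor markers, 3 were past it lower in MAC than in HP and 1 was higher. Mesoderm markers were not all higher in MES than in HB. *Mixl1* (46.9 and 80.4 FPKM) and *Eomes* (34.9 and 55.0 FPKM) were higher in HB, and *Mesp1* (52.9 and 42.9 FPKM) was lower. The number of reads behind the stage values is unknown here.

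*Cyp26a1* (chromosome 19, 37697808 to 37701536, plus strand) had 3.29 FPKM in ESC, 49.99 FPKM in MES, 115 FPKM in HB, 0.204 FPKM in HP and 0.00845 FPKM in MAC. It was thus high in both populations that express *Brachyury* and close to absent in the blood cells that follow. Among all genes in the stage table it ranked 7353 in ESC, 637 in MES and 224 in HB, and 11589 in HP. The difference was 3.57 from ESC to MES and 1.19 from MES to HB, which became 1.03 after scaling and lies near the limit. From HB to HP it was -6.59, and that from HP to MAC, -0.26, is between values near 0. *Cyp26a1* has 1 start site in the table, so these values do not depend on how reads were divided between start sites. The genes of the mesoderm moved in the same stages, as the summed FPKM of *T*, *Mixl1*, *Eomes*, *Mesp1* and *Fgf8* was 12.6 in ESC, reached 352 in MES, was 222 in HB and came to 0.445 and 0.0126 in HP and MAC. The 5 markers of visceral endoderm summed to at most 1.19 FPKM in every stage from ESC to HP.

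By Euclidean distance on log2(FPKM + 1) over the 5 stages, the genes whose pattern lay nearest to that of *Cyp26a1* were *Mixl1* (distance 0.55), *Eomes* (1.18) and *Mesp1* (1.52), which encode transcription factors of the early mesoderm. *Mixl1* had 2.91 FPKM in ESC, 46.9 FPKM in MES, 80.4 FPKM in HB, 0.127 FPKM in HP and 0.00879 FPKM in MAC. *Mesp1* differed in that it was higher in MES (52.9 FPKM) than in HB (42.9 FPKM). The other CYP26 genes, shown because they belong to the same family, were low wherever *Cyp26a1* was high. *Cyp26a1* took 98.7% of the summed FPKM of the family in ESC, 99.5% in MES and 99.6% in HB. In HP the family summed to 1.62 FPKM, and *Cyp26b1* took 84.3% of it with 1.37 FPKM.

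*Dhrs3* (chromosome 4, 144892827 to 144927645, plus strand) showed the opposite order, with 0.461 FPKM in ESC, 1.43 FPKM in MES, 0.567 FPKM in HB, 8.06 FPKM in HP and 158 FPKM in MAC. It was the highest of the 9 genes in the blood populations and ranked 349 among all genes in MAC. The difference from HB to HP was 2.53, and that from HP to MAC was 4.13 as deposited and 3.41 after scaling. Both of its start sites were used in MAC, where they gave 54.2% and 45.8% of the FPKM of the gene. In HP the 6 fibroblast markers summed to 37.5 FPKM, against 22.2 in HB, of which *Pdgfra* gave 16.7, and 2.21 in MAC, and their part in the value of *Dhrs3* in HP was not tested. Over the 5 stages the sum of these markers was highest in HP and lowest in MAC. The patterns nearest to *Dhrs3* were those of *Adcy7* (distance 0.76), an adenylate cyclase gene, *Rgs2* (0.77), a regulator of G protein signalling, and *Il10rb* (1.01), an interleukin receptor chain.

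*Aldh1a2* and *Stra6*, which stand for synthesis and uptake, were low in every stage. *Aldh1a2* (chromosome 9, 71215789 to 71296243, plus strand) had 0.305 FPKM in ESC, 0.153 FPKM in MES, 0.257 FPKM in HB, 0.0193 FPKM in HP and 0.0534 FPKM in MAC. *Stra6* (chromosome 9, 58129088 to 58153997, plus strand) had 0.0455, 0.0117, 0.0314 and 0.0105 FPKM from ESC to HP and was listed at 0 in MAC. Thus the breakdown gene *Cyp26a1* was high in MES and HB while the synthesis gene *Aldh1a2* did not reach 1 FPKM there. The related genes were low as well, as *Aldh1a1*, *Aldh1a2* and *Aldh1a3* together had 0.417 FPKM in ESC, 0.308 FPKM in MES and 0.667 FPKM in HB.

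Both cellular binding proteins were highest in ESC and almost absent in the blood cells. *Crabp1* (chromosome 9, 54764808 to 54773109, plus strand) had 15.0 FPKM in ESC, 2.91 FPKM in MES, 4.79 FPKM in HB and 0.129 FPKM in HP and was listed at 0 FPKM in MAC. It was past the limit from ESC to MES (-2.03) and from HB to HP (-2.36). *Crabp2* (chromosome 3, 87948693 to 87953372, plus strand) had 3.81 FPKM in ESC, 2.31 FPKM in MES, 1.51 FPKM in HB, 0.179 FPKM in HP and 0.0597 FPKM in MAC. It passed the limit from HB to HP (-1.09). *Crabp1* thus had the higher level of the pair in ESC, MES and HB. The genes nearest to *Crabp1* in pattern were *Adam23* (distance 0.92), *Wwc1* and *Nptx2* (0.98 each). Feeder fibroblasts can leave RNA in ESC samples, and the 6 fibroblast markers summed to 5.37 FPKM in ESC, of which *Thy1* gave 2.89 and *Col1a1* 0.524. Their part in the ESC values of the retinoid genes was not tested.

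The receptors changed in their proportions. *Rarg* (chromosome 15, 102234940 to 102257483, minus strand) had 39.1 FPKM in ESC, 8.51 FPKM in MES, 6.21 FPKM in HB, 1.65 FPKM in HP and 1.54 FPKM in MAC. *Rara* (chromosome 11, 98937696 to 98974942, plus strand) had 3.02, 3.51 and 5.01 FPKM in ESC, MES and HB, 1.44 FPKM in HP and 8.61 FPKM in MAC. *Rarb* had 0.0297 FPKM in ESC, 0.0400 FPKM in MES, 0.175 FPKM in HB, 0.0916 FPKM in HP and 0.260 FPKM in MAC. It was under 1 FPKM in all 5 stages, and the start of the promoter shown above lies outside the locus quantified for *Rarb*. *Rarg* took 92.8% of the summed receptor FPKM in ESC, 70.5% in MES, 54.5% in HB and 51.9% in HP, but 14.8% in MAC, where *Rara* took 82.7%. HP had the lowest sum of the 3 receptors, with 3.18 FPKM against 11.4 in HB and 10.4 in MAC.

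*Rarg* passed the limit from ESC to MES (-2.08) and from HB to HP (-1.44). *Rara* passed it from HB to HP (-1.30) and, in the other direction, from HP to MAC (1.98, or 1.37 after scaling). When the highest start site in each stage was used in place of the sum, the differences from HB to HP were -0.95 for *Rarg* and -0.46 for *Rara*. Neither was then past the limit. For *Rara* the highest start site was TSS2896 in HB (2.06 FPKM) but TSS2895 in HP (1.22 FPKM). The value of -0.46 is therefore not the change of any given start site. The start sites of *Rarg* moved apart, as TSS7103 gave 94.7% of its FPKM in ESC and 58.2% in HB, while TSS7104 gave 2.08 FPKM in ESC, 2.70 FPKM in MES and 2.60 FPKM in HB. Of the 3 start sites of *Rara*, TSS2896 had 1.55 FPKM in ESC, 0.273 FPKM in MES, 2.06 FPKM in HB, 0.000265 FPKM in HP and 3.84 FPKM in MAC. Reads in overlapping transcripts were divided between them by the quantification, and the sum over start sites is more certain than each of its parts. The genes nearest to *Rarg* in pattern were *E130012A19Rik* (distance 1.13), *Cbx7* (1.16), which encodes a Polycomb protein, and *Hook1* (1.23).

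**Figure D1:**
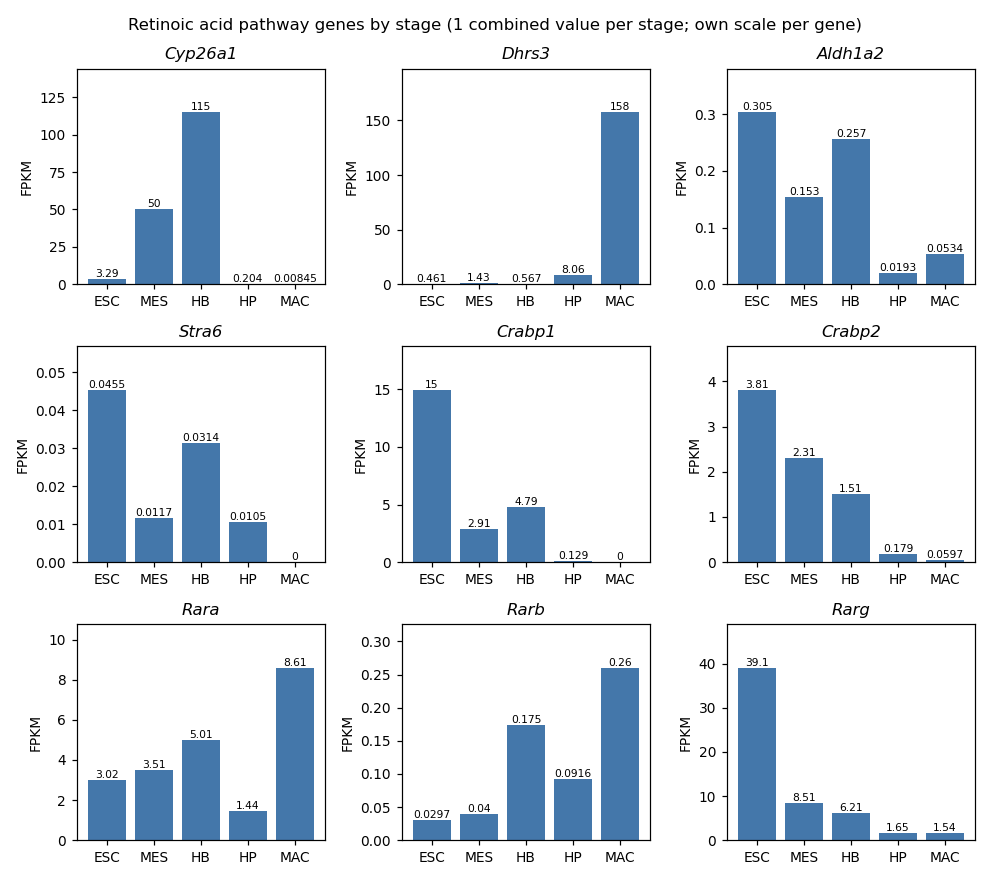
Expression of the 9 retinoic acid pathway genes in FPKM (vertical axes, a separate scale for each gene) in the 5 stages (horizontal axes). Each bar is 1 value that combines the replicates, so there are no error bars. *Cyp26a1* peaks at 115 FPKM in HB, *Dhrs3* at 158 FPKM in MAC and *Rarg* at 39.1 FPKM in ESC, while *Aldh1a2*, *Stra6* and *Rarb* stay under 1 FPKM.

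**Figure D2:**
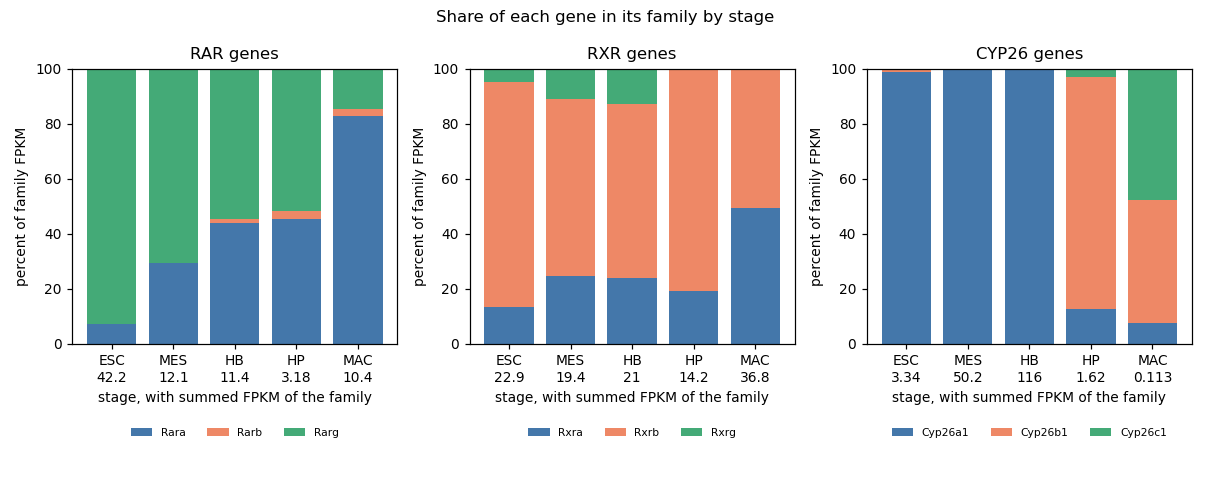
Share of each gene in the summed FPKM of its family (vertical axes, percent) for the RAR, RXR and CYP26 genes in the 5 stages, with the summed FPKM of the family printed under each stage. *Rarg* takes 92.8% of the RAR sum in ESC and *Rara* 82.7% in MAC, and *Cyp26a1* takes 99.6% of the CYP26 sum in HB.

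Counted by transition, 3 of the 9 genes were past the limit from ESC to MES, 1 higher and 2 lower, where 12.6% of all genes were, 6.15% higher and 6.46% lower. From MES to HB it was 1, *Cyp26a1*, where 4.96% of all genes were and 2.15% were higher. From HB to HP 6 of the 9 genes were past the limit, 5 lower (*Cyp26a1*, *Crabp1*, *Crabp2*, *Rara* and *Rarg*) and *Dhrs3* higher, where 15.5% of all genes were past it in either direction, 7.78% higher and 7.71% lower. Hemogenic endothelium, which lies between HB and HP in this series, was not analysed here. These 6 met the filter mainly through the stages in which they were high, and *Rara* and *Rarg* rest on the sum of their start sites. From HP to MAC 2 genes were past the limit, both higher, where 42.7% of all genes were and 30.2% were higher. The share of higher genes among all those past the limit at this transition was 70.7% as deposited and 44.1% after scaling, and both genes, *Dhrs3* and *Rara*, remained past the limit after scaling. The median difference of the 9 genes was -0.05, 0.12, -1.09 and -0.02 for the 4 transitions in this order, against 0, 0.09, -0.11 and 0.30 for all genes that met the filter. The 9 include *Rarb*, *Stra6* and *Aldh1a2*, which did not meet it, so the medians are not of like sets. The values of -0.05 and -0.02 are those of *Stra6*, and 0.12 is that of *Aldh1a2*. Both were under 1 FPKM in every stage, so these medians do not describe the expressed genes.

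A list of 35 other retinoid genes was examined for the rest of the pathway, of which 23 met the filter in the stages. From ESC to MES 4 of these 23 were past the limit upwards and 3 downwards, where 6.15% and 6.46% of all genes were. Among the enzymes, the retinol dehydrogenase gene *Rdh11* went from 11.2 to 34.0 FPKM. Of the genes known as retinoic acid targets in other settings, *Meis2* went from 0.160 to 1.46 FPKM, whereas *Gbx2* went from 6.91 to 0.776 FPKM and *Tgm2*, a transglutaminase gene, from 2.17 to 0.420 FPKM. The targets thus did not move in 1 direction while *Cyp26a1* was gained. The remaining 3 were *Fabp5* (1.83 to 5.05 FPKM) and the receptor cofactor gene *Nrip1* (0.999 to 3.22 FPKM), both higher, and the coactivator gene *Ncoa3* (21.6 to 8.15 FPKM), which was lower. From MES to HB none was past the limit, where 4.96% of all genes were.

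From HB to HP 3 of the 23 that met the filter were past the limit downwards and 1 upwards, where 7.71% and 7.78% of all genes were. *Rdh11* went from 48.7 to 19.1 FPKM, *Fabp5*, which encodes a fatty acid-binding protein that also binds retinoic acid, from 7.66 to 2.22 FPKM and *Rxrg* from 2.73 to 0.00415 FPKM. *Tgm2* went the other way, from 0.662 to 4.26 FPKM. From HP to MAC 7 of the 23 were higher and 1 lower, where 42.7% of all genes were past the limit and 30.2% were higher. The largest differences were those of *Fabp5*, from 2.22 to 628 FPKM (7.61, or 6.91 after scaling), and *Rbp4*, the carrier of retinol in plasma, from 0.0110 to 50.5 FPKM (5.67, or 5.08 after scaling). *Dhrs9*, a retinol dehydrogenase gene, went from 0.315 to 7.19 FPKM and *Rxra* from 2.73 to 18.1 FPKM, and both were past the limit after scaling too. *Rdh11*, *Rdh14* and *Ncoa1* were past it as deposited (1.51, 1.64 and 1.496) but not after scaling (0.79, 0.99 and 0.92). *Cyp26b1* was the gene that was lower, from 1.37 to 0.0507 FPKM. After scaling the corepressor genes *Ncor1* (-0.47 as deposited, -1.17 after scaling) and *Nrip1* (-0.57 and -1.18) were past the limit downwards as well, so that 4 genes were higher and 3 lower. The median difference of the 35 genes was 0.07, 0.05, -0.0029 and 0.0031 for the 4 transitions. It includes the genes that did not meet the filter. The values of -0.0029 and 0.0031 are those of *Lrat* and *Aldh1a3*, both under 1 FPKM in every stage. *Rxrb* took 81.6% of the summed FPKM of the RXR genes in ESC, 80.8% in HP and 50.7% in MAC, where *Rxra* took 49.2%.

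The same 9 genes were then followed in fibroblasts driven towards a blood fate. The table of fibroblasts was normalized separately, so that its levels are not compared with those of the stages. The genes of the vectors were examined first. *Tal1* had 0.0414 FPKM in uFIB, 62.0 FPKM in SL, 58.0 FPKM in SFGL and 7.04 FPKM in FGL on day 12. Its day 21 values in this order were 0.415, 347, 119 and 0.0705 FPKM. Those of *Fli1* were 3.43, 46.7, 41.2 and 8.29 FPKM on day 12 and 3.02, 34.4, 27.8 and 3.35 FPKM on day 21. *Lmo2* was at 0.499 FPKM in uFIB, 57.0 FPKM in SL, 48.4 FPKM in SFGL and 36.2 FPKM in FGL on day 12, and at 2.28, 150.5, 128 and 66.5 FPKM on day 21. *Gata2* was at 1.80, 68.8, 110.04 and 21.9 FPKM on day 12 and at 2.13, 62.6, 132 and 35.1 FPKM on day 21. Both were thus above uFIB in FGL on both days. The FGL vectors do not include *Tal1*, which was present in FGL on day 12, and *Fli1* in FGL on day 21 was close to uFIB, so FGL is used here as the label of these 2 libraries. For *Cyp26a1*, *Aldh1a2*, *Crabp1*, *Crabp2* and *Rarb*, the steps between libraries allowed the number of reads to be estimated. Intervals from them cover counting error at 95% only, and compare libraries and not conditions. The depth relative to uFIB on day 12 lay between 0.587 and 1.56 in the 7 other libraries and was lowest in FGL and SL on day 21.

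In the untreated fibroblasts 6 of the 9 genes were above 1 FPKM on both days. On day 12 uFIB had 42.5 FPKM of *Dhrs3*, 34.2 of *Crabp2*, 30.1 of *Rarg*, 16.0 of *Rara*, 12.2 of *Crabp1* and 6.04 of *Aldh1a2*, whereas *Rarb* (0.297 FPKM), *Stra6* (0.0771 FPKM) and *Cyp26a1* (listed at 0) were low. On day 21 the values were 45.1 FPKM for *Dhrs3*, 48.9 for *Crabp2*, 28.9 for *Rarg*, 15.5 for *Rara*, 16.5 for *Crabp1*, 33.7 for *Aldh1a2*, 0.757 for *Rarb*, 0.0447 for *Stra6* and 0.0242 for *Cyp26a1*. *Aldh1a2* was the gene that differed most between the untreated libraries, by 2.30 on the log2 scale, and of the 9 genes it alone was past the limit between them, where 2.88% of all genes were. From day 12 to day 21, 1 of the 9 was past it in SL (*Crabp2*, 1.06, where 4.4% of all genes were), 2 in SFGL (*Aldh1a2*, 1.19, and *Crabp1*, -2.01, where 4.58% were) and 3 in FGL (*Aldh1a2*, 3.01, *Crabp2*, 1.71, and *Rarb*, 1.16, where 6.86% were).

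*Crabp2* was lower than in uFIB in every treated library. On day 12 it had 34.2 FPKM in uFIB, 6.55 FPKM in SL, 6.73 FPKM in SFGL and 12.0 FPKM in FGL, and on day 21 it had 48.9, 14.8, 7.93 and 41.5 FPKM. SL and SFGL were below the FGL library on both days. By estimated reads, 434 in uFIB and 130 in SL on day 12, it was 5.22-fold lower in SL (95% counting interval 4.28 to 6.40), and it was 2.85-fold lower in FGL (2.38 to 3.42). On day 21 it was 3.31-fold lower in SL (2.72 to 4.06), 6.17-fold lower in SFGL (4.89 to 7.88) and 1.18-fold lower in FGL (1.04 to 1.35).

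*Dhrs3* was also lower in SL and SFGL than in uFIB. It had 42.5 FPKM in uFIB, 19.4 FPKM in SL, 17.5 FPKM in SFGL and 32.2 FPKM in FGL on day 12, and 45.1, 16.7, 15.7 and 58.1 FPKM on day 21. It was past the limit in SL and SFGL on both days, with differences of -1.09, -1.24, -1.38 and -1.47, but not in FGL (-0.39 on day 12 and 0.36 on day 21). This gene was thus lower in the libraries given *Scl* with *Lmo2*, while in the ESC series it was higher in the blood populations.

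*Aldh1a2* had 6.04 FPKM in uFIB, 5.55 FPKM in SL, 4.95 FPKM in SFGL and 2.83 FPKM in FGL on day 12. On day 21 it had 33.7 FPKM in uFIB, 5.24 FPKM in SL, 12.6 FPKM in SFGL and 29.8 FPKM in FGL. The libraries differed most on day 21, where the level in uFIB was much higher than on day 12, and that in SL was not. By estimated reads it was 6.44-fold lower in SL on day 21 (95% counting interval 5.35 to 7.81) and 2.67-fold lower in SFGL (2.39 to 2.998). In FGL it was 2.14-fold lower on day 12 (1.71 to 2.69) and 1.13-fold lower on day 21 (1.04 to 1.24). With the mean of both uFIB libraries as reference the log2 difference in SFGL on day 21 was -0.62 in place of -1.35 and no longer past the limit, while those on day 12 were -1.67 in SL, -1.81 in SFGL and -2.45 in FGL in place of -0.11, -0.24 and -0.88, and thus past it.

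*Crabp1* had 12.2 FPKM in uFIB, 14.1 FPKM in SL, 19.5 FPKM in SFGL and 15.2 FPKM in FGL on day 12, and 16.5, 7.41, 4.09 and 12.0 FPKM on day 21. All treated libraries were above uFIB on day 12 and below it on day 21. By estimated reads it was 1.60-fold higher in SFGL on day 12 (95% counting interval 1.27 to 2.02) and 4.04-fold lower in SFGL on day 21 (2.77 to 6.08), on 216 and 31 reads. In SL it was 1.16-fold higher on day 12, with an interval of 0.92 to 1.46 that includes equal levels, and 2.23-fold lower on day 21 (1.61 to 3.15). The log2 difference in SL on day 21, -1.06, was -0.87 with the mean of both uFIB libraries as reference.

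The receptors differed less. *Rara* had 16.0, 22.3, 15.3 and 16.9 FPKM in uFIB, SL, SFGL and FGL on day 12 and 15.5, 12.9, 13.2 and 17.5 FPKM on day 21. *Rarg* had 30.1, 20.5, 17.4 and 27.4 FPKM on day 12 and 28.9, 19.5, 16.6 and 37.5 FPKM on day 21 and was lower in SL and SFGL than in uFIB on both days, within the limit. *Rarb* had 0.297, 0.217, 0.281 and 0.323 FPKM on day 12 and 0.757, 0.770, 1.04 and 1.95 FPKM on day 21. In the FGL library on day 21, with 54 reads against 51 in the more deeply sequenced uFIB library, *Rarb* was 2.58-fold higher (95% counting interval 1.73 to 3.86), although its difference on log2(FPKM + 1), 0.75, was within the limit. At its 3′ end *Rarb* overlaps *Top2b* on the opposite strand, and whether the quantification used strand is not given in the sources used here.

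*Cyp26a1*, the highest of the 9 genes in HB in the stages, was close to absent in all 8 fibroblast libraries. It was listed at 0 FPKM in uFIB and had 0.199 FPKM in SL, 0.183 FPKM in SFGL and 0.0310 FPKM in FGL on day 12, estimated at 9, 6 and 1 reads. On day 21 it had 0.0242 FPKM in uFIB, 0.285 FPKM in SL and 0.0894 FPKM in SFGL, estimated at 1, 5 and 2 reads, and was listed at 0 FPKM in FGL. *Stra6* was listed at 0 in SL and SFGL on both days and in FGL on day 21. Of the mesoderm markers, *T*, *Mixl1* and *Mesp1* were likewise at most 0.107 FPKM and *Eomes* at most 0.215 FPKM in all 8 libraries, and *Fgf8* was listed at 0.

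**Figure D3:**
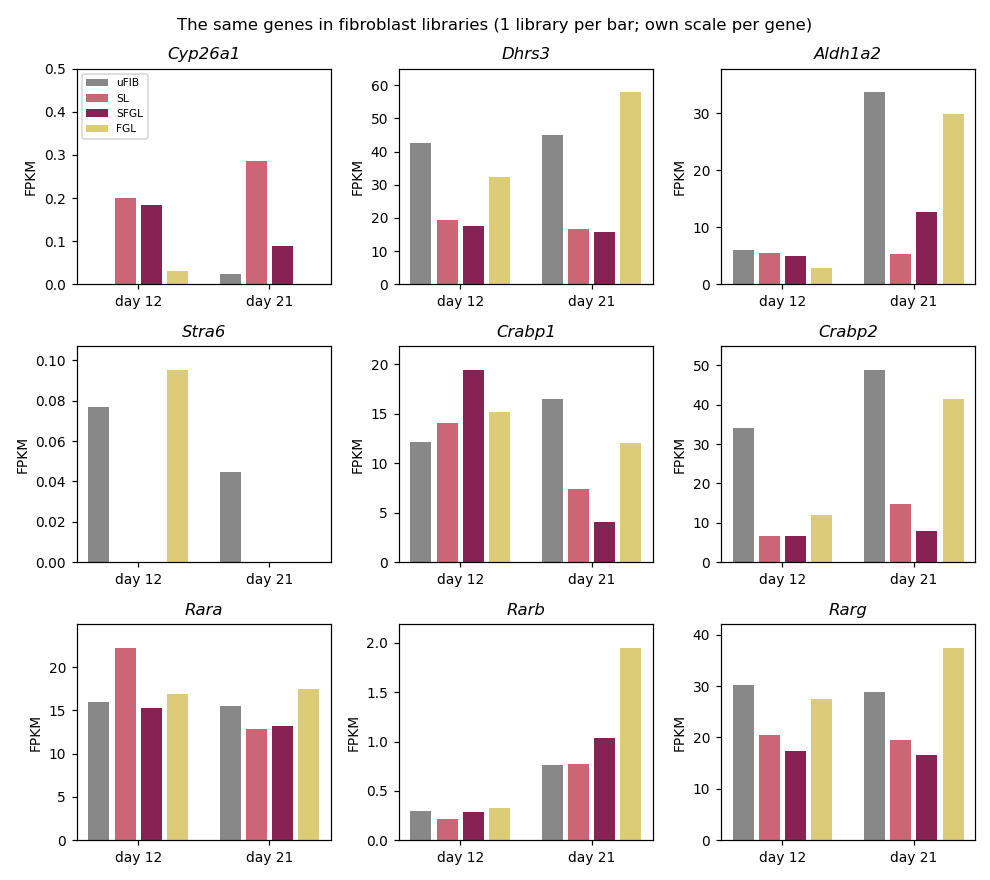
Expression of the 9 genes in FPKM (vertical axes, a separate scale for each gene) in the 8 fibroblast libraries on day 12 and day 21, coloured by treatment. Each bar is 1 library, so there are no error bars. *Crabp2* and *Dhrs3* are lower in SL and SFGL than in uFIB on both days, and *Aldh1a2* is at 33.7 FPKM in uFIB and 5.24 FPKM in SL on day 21.

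Of the 9 genes, those past the limit in a treated library were all lower than in uFIB of the same day. On day 12 these were 2 of the 9 genes in SL, where 26.6% of all genes were past the limit and 13% were lower, and 2 in SFGL, where 30.5% were past it and 16.3% were lower. In FGL on day 12 it was 1, where 3.03% of all genes were past it and 0.281% were lower. On day 21 they were 4 in SL (23.3% of all genes past the limit, 11.9% lower), 4 in SFGL (28.9% and 15.4%) and 0 in FGL (0.781%). The median difference of the 9 genes was -0.11, -0.11 and 0.02 in SL, SFGL and FGL on day 12 and -0.55, -0.76 and -0.03 on day 21, against -0.03, -0.03, -0.03, -0.04, -0.04 and 0.00 for all genes that met the filter. The 9 include *Cyp26a1* and *Stra6*, which did not meet it. The median was the value of *Stra6* in SFGL and FGL on day 12 and of *Cyp26a1* in FGL on day 21. The comparisons of a day share their uFIB library, so that they are not independent of each other.

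Fibroblast markers moved in the same libraries. The 6 markers *Col1a1*, *Col1a2*, *Col3a1*, *Thy1*, *Pdgfra* and *Lum* summed to 6500 FPKM in uFIB, 2216 FPKM in SL, 1828 FPKM in SFGL and 5337 FPKM in FGL on day 12 and to 5137, 1121, 930 and 4982 FPKM on day 21. All 6 were past the limit downwards in SL and SFGL on both days and none in FGL, and none of them was at 0 in any library. Their median differences were -1.63 in SL and -1.91 in SFGL on day 12 and -1.99 and -2.47 on day 21. In a bulk sample, fewer fibroblasts and less RNA per fibroblast cannot be told apart, and the part of the fibroblast share in the differences of *Crabp2*, *Dhrs3*, *Aldh1a2* and *Crabp1* was not tested. In FGL the log2 difference of *Crabp2* was -1.44 on day 12 and -0.23 on day 21, with marker medians of -0.18 and -0.02. Each value compares 1 library with 1 library, and the contrast was not tested.

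**Figure D4:**
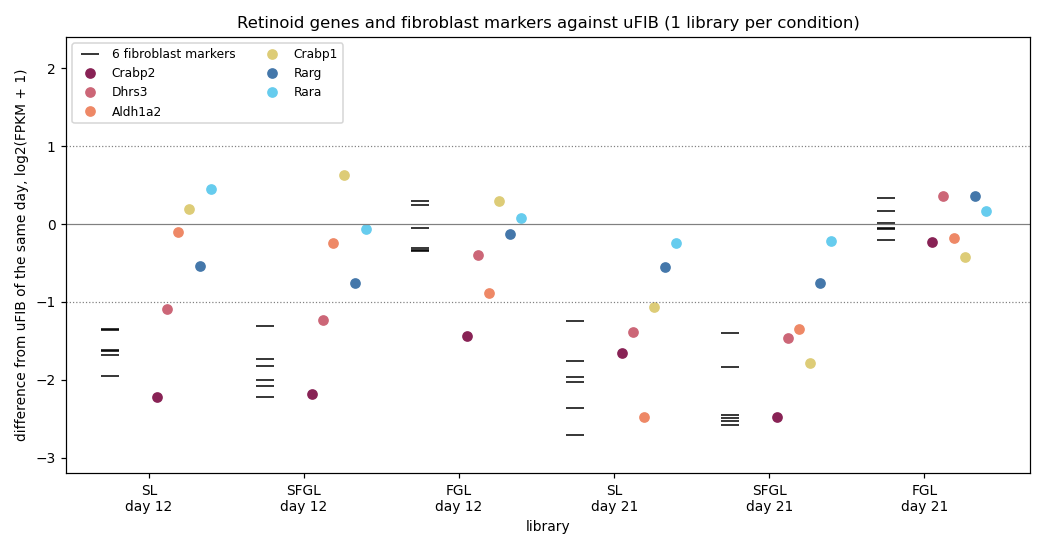
Difference from uFIB of the same day on log2(FPKM + 1) (vertical axis) in the 6 treated libraries (horizontal axis) for 6 retinoid genes (coloured points) and 6 fibroblast markers (black dashes), with dotted lines at the 2-fold limit of 1 and -1. *Crabp2* lies below the lower line in every library except FGL on day 21, and the markers lie below it in SL and SFGL.

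Of the 35 other retinoid genes, 23 met the filter in the fibroblasts, and most of those past the limit were lower. There were 1 higher and 4 lower in SL and 1 higher and 9 lower in SFGL on day 12, and 1 higher and 5 lower in SL and 2 higher and 8 lower in SFGL on day 21. Among all genes, 26.6% were past the limit and 13% were lower in SL on day 12, and 30.5% and 16.3% in SFGL. On day 21 these shares were 23.3% and 11.9% in SL and 28.9% and 15.4% in SFGL. In FGL only *Rbp4* on day 12 was past the limit, from 10.5 to 3.65 FPKM, where 3.03% of all genes were and 0.281% were lower. On day 21 0.781% of all genes were past it in FGL. *Dhrs4*, an NADP-dependent retinol dehydrogenase and reductase gene, went from 15.1 FPKM in uFIB to 6.16 FPKM in SL and 4.39 FPKM in SFGL on day 12 and from 16.6 to 4.89 and 3.56 FPKM on day 21. *Rarres2*, which encodes the retinoic acid-responsive protein chemerin, went from 174 FPKM to 96.2 in SL and 85.3 in SFGL on day 12 and from 210 to 22.3 and 41.5 FPKM on day 21. *Aldh1a7* went from 30.2 FPKM in uFIB on day 21 to 4.41 FPKM in SL and 2.54 FPKM in SFGL, and it has close relatives that can share reads. *Rbp4* and *Dhrs4* were past the limit downwards in SL and SFGL on both days.

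*Dhrs9* was the gene that moved upwards in SL and SFGL on both days. It went from 2.34 FPKM in uFIB to 8.23 FPKM in SL and 10.5 FPKM in SFGL on day 12 and from 0.789 to 6.61 and 13.9 FPKM on day 21. It was also higher in MAC than in HP in the stages, as given above. *Rdh11* passed the limit upwards in SFGL on day 21, from 12.6 to 36.9 FPKM. Macrophage markers were also higher in these libraries. The 5 markers *Csf1r*, *Cd68*, *Cd14*, *Fcgr3* and *Adgre1* summed to 9.87 FPKM in uFIB, 225 FPKM in SL and 265 FPKM in SFGL on day 12 and to 8.54, 109 and 168 FPKM on day 21. All 5 were past the limit in SFGL on day 12 and 4 of the 5 in the 3 other libraries, and none was at 0. Their part in the values of *Dhrs9* was not tested. *Rxra* was lower in SL and SFGL on both days and past the limit in SFGL on day 12 (31.0 to 13.8 FPKM) and in both on day 21 (27.0 to 12.3 and 8.71 FPKM).

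**Figure D5:**
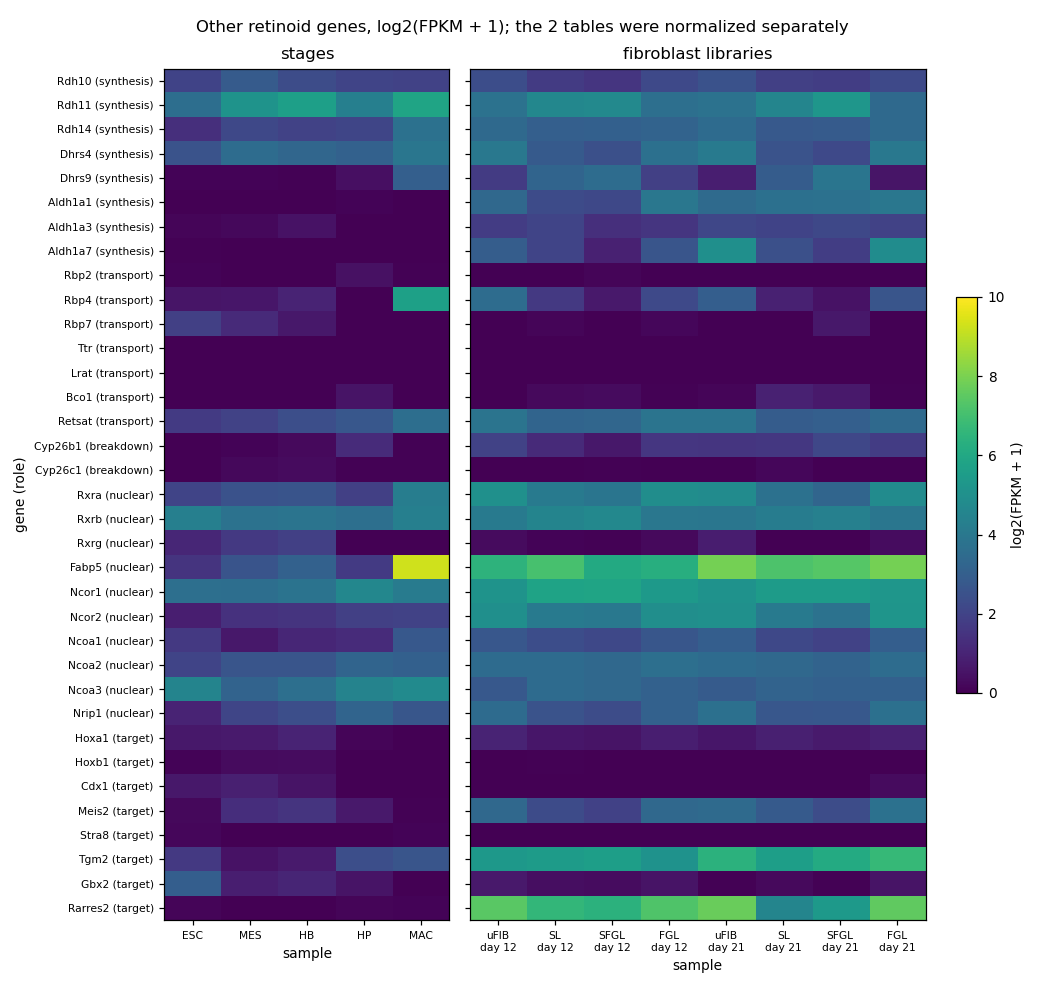
Level of the 35 other retinoid genes as log2(FPKM + 1) (colour, from 0 to 10) in the 5 stages and in the 8 fibroblast libraries, with the role under which each gene was listed. *Fabp5* and *Rbp4* stand out in MAC (628 and 50.5 FPKM), and *Rarres2* is lower in SL and SFGL on day 21 (22.3 and 41.5 FPKM) than in uFIB (210 FPKM).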

How the data were processed

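RNA was depleted of ribosomal RNA and sequenced as 50-base single reads on the SOLiD platform for the stages. For the stages the authors aligned reads to mm10 (GRCm38) with SHRiMP, kept uniquely mapped ones, took out duplicates (Picard) and quantified with Cufflinks; the submitters' notes also name TopHat and Bowtie, and no versions are given in the sources used here. The values are FPKM as the authors deposited them, 1 combined value per stage and start site and 1 value per fibroblast library and gene, with separate normalization of the tables. The HE column (1) was not used because no sample is mapped to it.

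Values of start sites were summed per gene. Differences are of log2(FPKM + 1), with limits of 2-fold and 1 FPKM. With no replicate columns, no test was run; a fit of the fibroblasts over both days was not made. The genes, lists and alternatives were chosen with earlier results of these data known. All 9 genes are named; of the 35 others, those past the limit are named, besides family members; 1 further gene of that list is not reported here; for genes reaching 10 FPKM in a stage, the 3 nearest patterns are named. Relative depth came from values under 0.3 FPKM, where 15.1% to 19.2% of low genes shared the step of 1 read. Reads of 5 genes were then taken as the smallest whole numbers that fit (tolerance 0.03, largest distance 0.00131), a step chosen after the values had been seen; for the 4 others no step was found. The call of genes past the limit was tested on simulated data, the read estimates were not. Python 3.11.15, NumPy 2.4.6 and pandas 2.3.3 were used.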

Additional observations from a re-analysis of the deposited data

Results flagged for a closer look

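*Crabp1* stood out because its differences from uFIB had opposite signs on the days. In SL it was 0.19 on day 12 and -1.06 on day 21, and in SFGL it was 0.64 on day 12 and -1.78 on day 21, on log2(FPKM + 1). Each value compares 1 library with 1 library, and the difference between the days was not tested.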

How the results depend on the processing

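Other pseudocounts, scaling to the same upper quartile and no filter on low values were tried. So were the highest start site in each stage and a reference averaged over both uFIB libraries. Of 450 values for single genes, 429 kept their side of the 2-fold limit, 17 passed it newly, 4 no longer passed it, and none past the limit changed sign. The 90 values without a filter repeat the main ones by construction, so their agreement is no check. Genes with 1 start site could likewise not move when the highest start site was used. The number of genes past the limit moved by over 1.5 times in few cases. From MES to HB it was 2 in place of 1 with a pseudocount of 0.1 or 0.001, where *Dhrs3* was added (-1.20 and -1.34). From HP to MAC it was 4 in place of 2 with a pseudocount of 0.1. In FGL on day 12 it was 2 in place of 1 with either pseudocount or the mean of both uFIB libraries, and in FGL on day 21 it was 1 in place of 0 with either pseudocount, *Rarb* (1.26 and 1.37). Of the 12 genes nearest in pattern, 7 were shared with a pseudocount of 0.1. No paired analysis was possible because the stage values already combine their numbered replicates, so that none could be left out either; the fibroblasts have 1 library per condition and day, and a fit with the day as a block was not run. In FGL on day 21 the share of higher genes among all genes past the limit was 56% as deposited and 44.6% after scaling.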
